A study of Mus musculus with 18 samples.

Results

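Zeb2 and 4 other transcription factors of the epithelial-mesenchymal transition (EMT), Zeb1, Snai1, Snai2 and Twist1, were followed in Ctrl and Zeb2 KO mouse embryonic stem cells (ESCs) during neural differentiation (ND). They were taken by gene symbol, each has 1 row, and they are 5 of the 10965 genes of the deposited TPM table (TPM is a transcript level scaled for gene length and library depth). The 18 libraries form 6 groups of 3. Ctrl cells are Zeb2 fl/fl, so they carry the floxed allele without the deletion, and Zeb2 KO cells are Zeb2 -/- and derive from floxed lines after Cre or from a second derivation. Which lines were sequenced is not given in the sources used here, and the strain label is CD1 for both genotypes. At d0 both genotypes were ground-state ESCs kept with LIF and inhibitors of MEK and GSK3 (2i). At d4 they were embryoid bodies (EBs) in medium with 15% serum, labelled as multipotent progenitors. At d6 they were EBs that had received 500 nM retinoic acid in N2B27 from d4 on, labelled as neural progenitors. The methods describe the 3 replicates as independent experiments, and p-values measure the spread between these libraries. As the lines are not given, these p-values need not cover differences between lines. Such differences cannot be told apart here from those of the genotype.

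The 5 proteins are DNA-binding regulators. Zeb1 and Zeb2 are zinc finger-homeodomain proteins whose zinc finger clusters bind E-box sequences around CACCT, and they repress genes such as Cdh1 through corepressors including CtBP and NuRD. Snai1 (Snail) and Snai2 (Slug) are zinc finger repressors of the same E-boxes that act in mesoderm and neural crest, and Twist1 is a basic helix-loop-helix (bHLH) factor that dimerises with E proteins such as Tcf3 and Tcf12. Zeb2 also binds activated SMADs and is needed for neural crest and neural development.

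The 250 bases before an annotated start site are shown for Snai1, Twist1 and 1 of the 4 start sites of Zeb2 (RefSeq, GRCm38.p6), because Zeb and Snail proteins recognise the E-box core. Each is written 5′ to 3′ on the strand of the gene, with matches to CACCT or CACCTG on either strand (AGGTG or CAGGTG on the other) in capitals. CACCTG holds CACCT, so its matches count for both.
Zeb2, start site 1, chr2:45117443-45117692, minus strand: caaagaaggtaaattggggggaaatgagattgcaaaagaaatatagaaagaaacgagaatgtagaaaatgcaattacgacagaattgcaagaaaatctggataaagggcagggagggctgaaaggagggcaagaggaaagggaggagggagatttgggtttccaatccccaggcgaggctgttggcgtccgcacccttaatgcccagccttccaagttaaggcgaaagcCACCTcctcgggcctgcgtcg
Snai1, chr2:167537945-167538194, plus strand: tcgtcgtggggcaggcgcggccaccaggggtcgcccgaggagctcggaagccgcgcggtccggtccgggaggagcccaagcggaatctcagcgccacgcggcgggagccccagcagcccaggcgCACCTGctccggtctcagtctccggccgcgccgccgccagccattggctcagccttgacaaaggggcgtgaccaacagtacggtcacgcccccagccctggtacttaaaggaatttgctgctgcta
Twist1, chr12:33957421-33957670, plus strand: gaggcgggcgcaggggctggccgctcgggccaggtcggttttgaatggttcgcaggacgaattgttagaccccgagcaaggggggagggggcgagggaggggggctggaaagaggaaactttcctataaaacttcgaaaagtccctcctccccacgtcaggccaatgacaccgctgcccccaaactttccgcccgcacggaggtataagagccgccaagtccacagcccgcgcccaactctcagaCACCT
The Snai1 window held the 6-base E-box CACCTG at position -126 from the start site, a motif found in 17.2% of the 32851 RefSeq windows of this length. The Twist1 window held the shorter CACCT at position -5 and the Zeb2 window at position -21, and 46.0% of all windows held CACCT. Among the other Zeb2 start sites, the second held CACCT at position -248, the third held it on the other strand at position -29, and the fourth held neither. These matches are a description of the letters and not of binding. Snai2 and Zeb1 are named only.

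In the GRCm38 annotation (GENCODE M21) Zeb2 lies on chromosome 2, from 44983632 to 45117395 on the minus strand, and Snai1 on the same chromosome from 167538195 to 167542814 on the plus strand. Twist1 is on chromosome 12 (33957671 to 33959829, plus strand), Snai2 on chromosome 16 (14705852 to 14709385, plus strand) and Zeb1 on chromosome 18 (5591860 to 5775467, plus strand). All 5 are annotated as protein-coding. The antisense gene Zeb2os shares 653 exon bases with Zeb2 and Gm10125 shares 198 with Zeb1, and neither was analysed here. Whether reads were counted by strand is not given in the sources used here, so reads from these antisense genes cannot be told apart from those of Zeb2 and Zeb1.

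The labels were checked with fixed marker lists. The summed TPM of the 15 pluripotency genes was 9577.6 to 9948.3 in Ctrl and 9034.4 to 9753.0 in Zeb2 KO libraries at d0, and at d6 it was 1557.7 to 1769.2 in Ctrl but 4829.8 to 5279.8 in Zeb2 KO. The sum of the 13 neural progenitor genes measured was 663 to 801 at d6 in Ctrl and 139 to 189 in Zeb2 KO. The table kept genes with at least 5 TPM in 3 or more libraries. Of these 13 genes, 6 passed this minimum only through Ctrl libraries, 5 of them only through Ctrl d6 (4.22% of all genes passed only through Ctrl). The filter thus favours a lower KO sum. Pax6, a defining neural progenitor gene, was at 34.6 ± 0.697 TPM (SD, n = 3) in Ctrl and at 0.825 ± 0.109 in Zeb2 KO at d6, so the neural progenitor label of the KO libraries is not matched by this marker. Pax6 was picked after its values were seen, and 2 other markers differed less. At d6 Sox1 was at 58.4 ± 6.07 in Ctrl and 10.9 ± 2.14 in KO, and Nes at 93.5 ± 5.38 and 50.1 ± 7.04. In KO both stood above their d0 means of 5.53 (Sox1) and 24.0 (Nes). In bulk EBs, fewer cells of a type and less RNA per cell cannot be told apart. Reads on genes ran from 9622622 to 15617675 per library, and replicates correlated with Spearman rho of 0.979 to 0.993.

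Zeb2, the gene targeted in the KO cells, rose in Ctrl cells on each interval and stayed well below the Ctrl level in Zeb2 KO cells. Its TPM in the 3 Ctrl libraries was 0.138, 0.123 and 0.128 at d0, 1.23, 1.39 and 1.47 at d4, and 7.81, 7.53 and 7.65 at d6. The Zeb2 KO libraries had 0.0171, 0.0274 and 0.0203 at d0, 0.126, 0.204 and 0.161 at d4, and 0.717, 0.594 and 0.733 at d6. Every KO library was below every Ctrl library of its day, and all 3 KO libraries at d6 were below the 3 Ctrl libraries at d4. The KO mean was 16.7% of the Ctrl mean at d0, 12.0% at d4 and 8.89% at d6. The deposited values add 1 read to each gene, which weighs on the lowest libraries, where Zeb2 KO at d0 had only 1 to 3 reads. Summed over the 3 libraries, Zeb2 had 5 reads in KO and 46 in Ctrl at d0, a KO level of 11.6% of Ctrl per read of depth (exact 95% interval 3.61% to 29.2%, counting error only). At d4 it was 12.6% (9.25% to 16.8%) and at d6 9.40% (8.19% to 10.8%). The values are totals over the gene, so they do not show from which exons the remaining KO reads came.

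On the log2(TPM + 1) scale, which understates changes of genes below 1 TPM, limma with Benjamini-Hochberg adjustment over all genes gave a KO minus Ctrl difference for Zeb2 of -0.14 ± 0.12 (SE) at d0 (adjusted p = 0.360), -1.02 ± 0.12 at d4 (adjusted p = 2.56e-06) and -2.37 ± 0.12 at d6. The table kept genes with at least 5 TPM in 3 or more libraries, and Zeb2 reached 5 TPM only in the 3 Ctrl libraries at d6 (highest elsewhere 1.47 TPM), so values that set Ctrl d6 against other groups are given for Zeb2 as a description, with no p. A gene is called below where its adjusted p was under 0.01. With voom on the reads recovered from the TPM values, where no pseudocount of 1 TPM enters, the differences in log2 reads per unit of depth were -2.84 (adjusted p = 0.000241), -2.98 and -3.41, so the d0 difference was called on that scale.

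**Figure D1:**
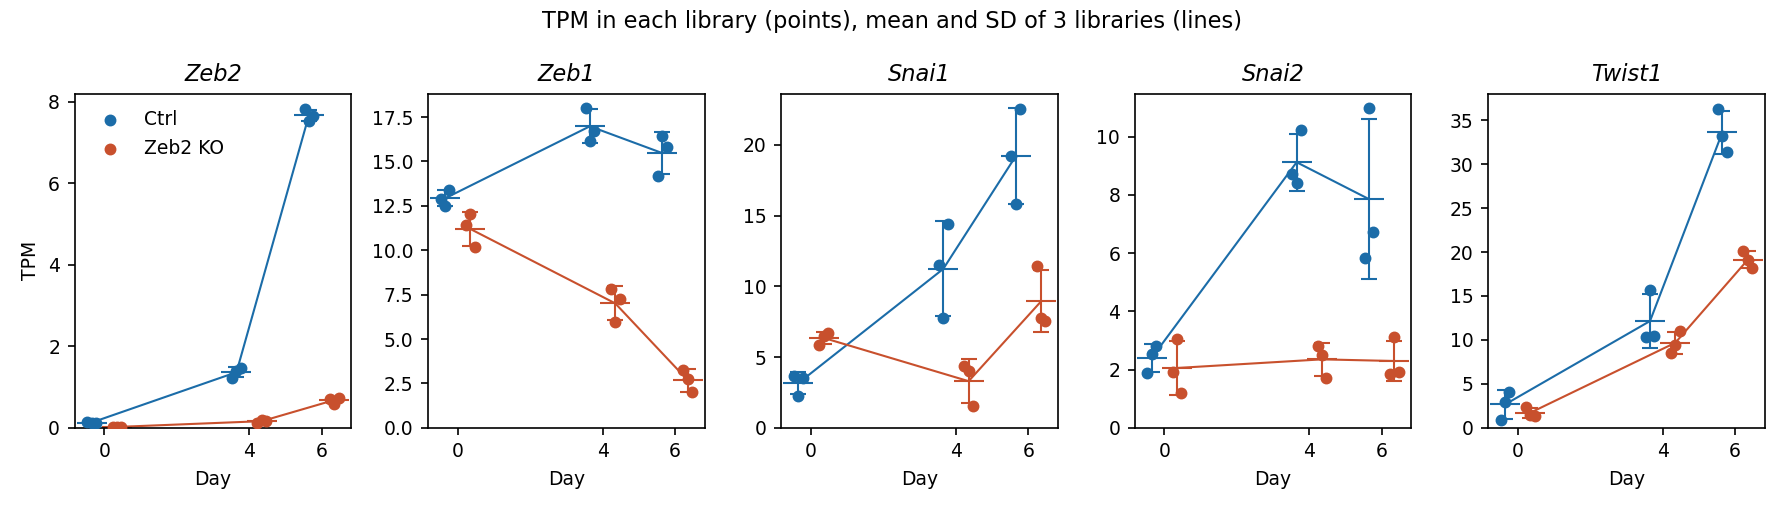
TPM of the 5 genes (1 panel each, own linear axis from 0) at d0, d4 and d6 in Ctrl (blue) and Zeb2 KO (orange). Points are the 3 libraries of a group, shifted sideways for sight, and lines join the group means with their SD. Zeb2, Zeb1, Snai1 and Snai2 separate by genotype at d4 and d6 without overlap, while Twist1 overlaps at d4.

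Zeb1, the paralogue of Zeb2, was the most abundant of the 5 genes in ESCs and fell during differentiation in Zeb2 KO cells, while it stayed near its ESC level in Ctrl cells. Its TPM in Ctrl was 12.9, 12.5 and 13.4 at d0, 18.0, 16.2 and 16.7 at d4, and 14.2, 16.4 and 15.8 at d6. Zeb2 KO libraries had 11.4, 12.0 and 10.2 at d0, 7.81, 5.96 and 7.27 at d4, and 3.28, 2.76 and 2.01 at d6. All KO libraries lay below all Ctrl libraries of the same day, by a small margin at d0. The KO minus Ctrl difference was -0.19 ± 0.13 (SE) at d0 (adjusted p = 0.257), -1.17 ± 0.13 at d4 (adjusted p = 1.58e-06) and -2.17 ± 0.13 at d6 (adjusted p = 5.82e-10), and the d6 mean in KO was 17.3% of that in Ctrl. Between 119 and 1310 reads per library stood behind these values. The sum of Zeb1 and Zeb2 was 23.1 ± 1.04 TPM (SD, n = 3) in Ctrl and 3.36 ± 0.625 in Zeb2 KO at d6, against 13.1 ± 0.459 and 11.2 ± 0.958 at d0. The ratio of Zeb1 to Zeb2 moved in Ctrl from 93.6 to 105 at d0 over 11.4 to 14.6 at d4 to 1.81 to 2.18 at d6. In Zeb2 KO this ratio fell too, from 439 to 665 at d0 over 29.2 to 61.9 at d4 to 2.74 to 4.64 at d6. The KO values at d0 rest on 1 to 3 Zeb2 reads per library.

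Snai1 showed opposite orders of the genotypes in ESCs and in EBs. In Ctrl its TPM was 3.68, 2.28 and 3.52 at d0, 11.5, 7.74 and 14.4 at d4, and 19.2, 15.8 and 22.6 at d6. In Zeb2 KO it was 5.88, 6.46 and 6.73 at d0, 4.37, 4.02 and 1.51 at d4, and 11.5, 7.77 and 7.58 at d6. The 3 KO libraries were thus above all Ctrl libraries at d0, an order found for 19.9% of all genes, and below them at d4 and d6. The difference was 0.84 ± 0.27 (SE) at d0, which was not called (adjusted p = 0.0212), -1.55 ± 0.27 at d4 (adjusted p = 0.000157) and -1.03 ± 0.27 at d6 (adjusted p = 0.00330). The d0 difference was called when KO d4 replicate 3 was left out (adjusted p = 0.00539) or when d0 was fitted alone (0.00720). The d6 call was lost without Ctrl d6 replicate 1, Ctrl d6 replicate 3, KO d6 replicate 2 or KO d6 replicate 3, where its adjusted p was 0.0107 to 0.0179, and under both rescalings of the libraries. Snai1 had only 6 to 125 reads per library.

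Snai2 rose in Ctrl EBs and stayed near its ESC level in Zeb2 KO EBs. Its TPM in Ctrl was 1.88, 2.52 and 2.81 at d0, 8.71, 8.41 and 10.2 at d4, and 5.84, 11.0 and 6.72 at d6. In Zeb2 KO it was 1.91, 3.05 and 1.21 at d0, 2.82, 2.51 and 1.72 at d4, and 1.86, 3.10 and 1.92 at d6. The genotypes overlapped at d0 and did not at d4 and d6, where the lowest Ctrl library was above the highest KO library. The difference was -0.19 ± 0.24 (SE) at d0 (adjusted p = 0.575), -1.60 ± 0.24 at d4 and -1.40 ± 0.24 at d6, with KO means at 25.8% and 29.2% of Ctrl on the later days. Snai2 reached 5 TPM in the 3 Ctrl libraries at d4 and the 3 at d6 and in 0 KO libraries, so it was kept in the table through Ctrl EBs alone. That filter favours higher values in Ctrl EBs. Snai2 values that set Ctrl d4 or d6 against other groups are therefore a description, with no p. Reads per library ran from 6 to 80.

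Twist1 rose in both genotypes. In Ctrl its TPM was 0.887, 2.99 and 4.12 at d0, 10.3, 15.7 and 10.4 at d4, and 36.3, 33.2 and 31.4 at d6. In Zeb2 KO it was 2.40, 1.47 and 1.31 at d0, 8.55, 9.46 and 11.0 at d4, and 20.1, 19.1 and 18.2 at d6. The genotypes overlapped at d0 and d4, while at d6 all KO libraries were below all Ctrl libraries and the KO mean was 56.9% of the Ctrl mean. None of the 3 differences was called: -0.33 ± 0.27 (SE) at d0 (adjusted p = 0.367), -0.28 ± 0.27 at d4 (adjusted p = 0.388) and -0.78 ± 0.27 at d6 (adjusted p = 0.0191, 95% interval -1.36 to -0.21). The d6 difference was called with voom (adjusted p = 0.00198), with d6 fitted alone, with a pseudocount of 5, and without Ctrl d0 replicate 1 (0.00110) or Ctrl d0 replicate 3 (0.00837). Without Ctrl d0 replicate 1, which had the lowest of the 3 Ctrl values, the d0 difference was -0.75 and was called (0.00736). Twist1 had 5 to 194 reads per library.

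**Figure D2:**
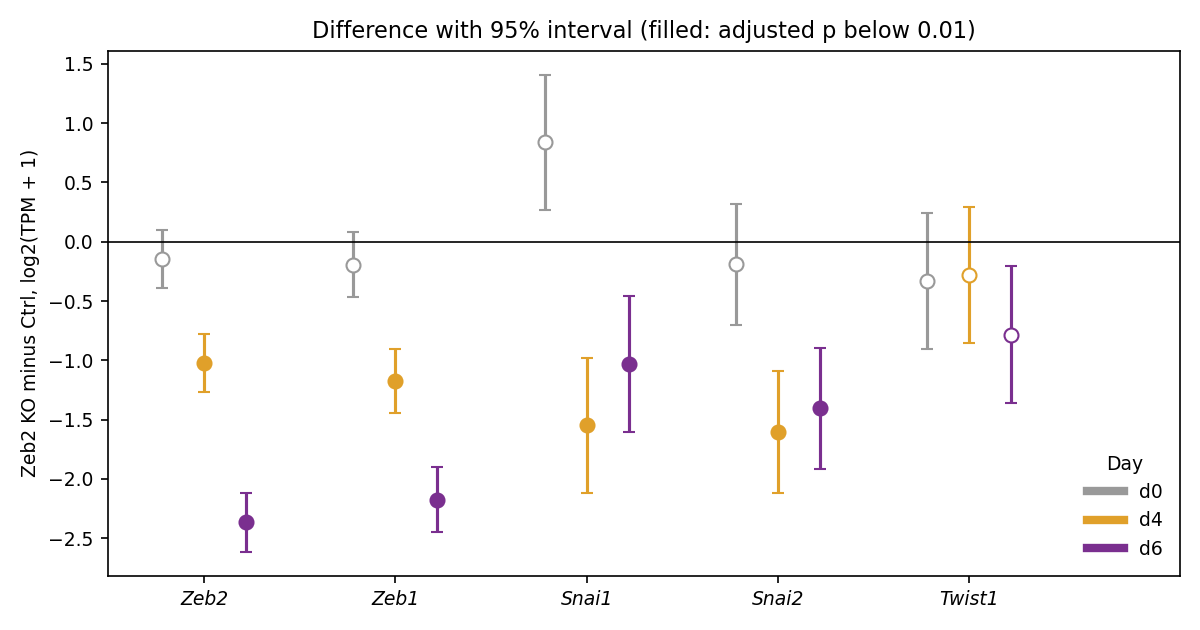
KO minus Ctrl difference in log2(TPM + 1) of each gene at d0 (grey), d4 (yellow) and d6 (purple), with its 95% interval from the limma fit to 18 libraries. Filled points have an adjusted p under 0.01. Zeb2 and Zeb1 reach -2.37 and -2.17 at d6, Snai1 stands above 0 at d0, and no point of Twist1 is filled.

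Counted over the 5 genes, 4 were called lower in Zeb2 KO at d4 (32.7% of all 10965 genes were) and 4 at d6 (34.3%), namely Zeb2, Zeb1, Snai1 and Snai2 on both days. Of these, Zeb2 and Snai2 passed the TPM minimum only through Ctrl libraries, as 4.22% of all genes did, which favours lower KO values for both. Zeb2 is also the gene targeted in the KO cells, so its lower level there is part of the design. Zeb1 and Snai1 are the called members without these limits. None was called higher, against 12.7% of all genes at d4 and 17.9% at d6. At d0 limma called 0 of the 5, while 16.4% of all genes were called lower and 10.6% higher, 1 member (Snai1) had an unadjusted p under 0.05, and voom called 1 (Zeb2). All KO libraries were below all Ctrl libraries for 2 members at d0 (31.5% of all genes), 4 at d4 (45.7%) and 5 at d6 (41.1%). Over all genes the median difference stood at -0.07 (d0), -0.16 (d4) and -0.14 (d6), and a rescaling of the libraries by median ratios moved it to 0.0015 (d4) and 0.01 (d6). Under that rescaling calls over all genes were 2335 lower and 2300 higher at d4, against 3591 and 1397 in TPM, and 2811 and 2804 at d6, against 3764 and 1967. The directions of Zeb2, Zeb1, Snai1 and Snai2 at d4 and d6 were kept under both rescalings.

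In level, TPM being scaled for length, Zeb1 was first in both genotypes at d0 and Zeb2 had the lowest mean in every group. In Ctrl at d0 the order was Zeb1 (12.9 TPM), Snai1 (3.16), Twist1 (2.66), Snai2 (2.40) and Zeb2 (0.129), and Snai1, Twist1 and Snai2 overlapped with their neighbours. At d4 in Ctrl, Zeb1 (17.0) was followed by Twist1 (12.1), Snai1 (11.2) and Snai2 (9.12), again overlapping in that order after Zeb1, and by Zeb2 (1.36). At d6 in Ctrl, Twist1 was first (33.6 ± 2.44, SD, n = 3), Snai1 (19.2) overlapped with Zeb1 (15.5), and Snai2 (7.85) overlapped with Zeb2 (7.66 ± 0.138). In Zeb2 KO at d6, Twist1 (19.1), Snai1 (8.94) and Zeb1 (2.68) were apart, Zeb1 overlapped with Snai2 (2.29), and Zeb2 (0.681) was below them. The annotated exon bases are 19942 for Zeb2, 10266 for Zeb1 and 1621 for Snai1. Which lengths entered the deposited TPM is not given in the sources used here. In TPM 1 read was worth 0.00685 to 0.0107 for Zeb2 and 0.147 to 0.229 for Snai1, a larger gap than these exon bases give. The order of levels between genes thus rests on lengths that could not be checked.

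Over ND, 4 of the 5 genes were called higher at d6 than at d0 in Ctrl (45.8% of all genes were), and 2 in Zeb2 KO (40.3%), with Zeb1 called lower in KO (27.4%). Of the 4 in Ctrl, Zeb2 and Snai2 passed the TPM minimum only through Ctrl EBs, which favours a rise there. Snai1 and Twist1 are the others. Twist1 changed by 3.36 ± 0.27 (SE) on the log2 scale in Ctrl (adjusted p = 8.02e-09) and by 2.91 ± 0.27 in KO (adjusted p = 5.41e-08). Zeb2 changed by 2.94 ± 0.12 in Ctrl and by 0.72 ± 0.12 in KO (adjusted p = 3.39e-05). With voom on recovered reads, a scale of relative change, the Zeb2 rise was 5.87 ± 0.25 in Ctrl and 5.31 ± 0.50 in KO (adjusted p = 2.62e-09). Snai1 changed by 2.28 ± 0.27 in Ctrl (adjusted p = 8.29e-07) and Snai2 by 1.35 ± 0.24, whereas in KO they stood at 0.41 ± 0.27 (adjusted p = 0.175) and 0.13 ± 0.24 (adjusted p = 0.634). With quantile normalization the Snai2 change in Ctrl was 0.28 and was not called. Zeb1 was at 0.24 ± 0.13 in Ctrl (adjusted p = 0.0968) and fell by 1.74 on the log2 scale in KO (SE 0.13, adjusted p = 2.87e-09). The direction of Zeb1 in Ctrl turned under both rescalings, to -0.04 with the median ratio and to -0.44 with quantile normalization, which was called (adjusted p = 0.00500).

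The 2 intervals differed between genes. From d0 to d4 in Ctrl, 67.4% of all genes were called in either direction, among them Twist1 (1.94), Snai2 (1.58), Snai1 (1.54) and Zeb2 (1.06), while Zeb1 (0.37, adjusted p = 0.0159) was not. With quantile normalization Snai1 (0.78, adjusted p = 0.0222) and Zeb2 (0.38, adjusted p = 0.0122) lost these calls, and Zeb1 was called with voom (0.28, adjusted p = 0.00786) and with a pseudocount of 5 (0.29, adjusted p = 0.00368). From d4 to d6 in Ctrl, 44.1% of all genes were called, among them Zeb2 (1.87) and Twist1 (1.42), and Snai1 (0.75, adjusted p = 0.0268), Snai2 (-0.23) and Zeb1 (-0.13) were not. Snai1 was called there with voom (adjusted p = 0.00303) and with a pseudocount of 5 (0.00610). In Zeb2 KO from d0 to d4, with 56.7% of genes called, Twist1 rose (1.99) and Zeb1 fell by 0.61 on the log2 scale, while Snai1 was at -0.85 (adjusted p = 0.0108), just short of the call, and Zeb2 (0.19) and Snai2 (0.16) were not called. Zeb2 went from 5 to 51 reads over the 3 KO libraries, and its rise was called with voom (3.17, adjusted p = 2.21e-05), with a pseudocount of 0.1 (1.11, adjusted p = 0.000863) and with eBayes without trend (adjusted p = 0.00639). In KO from d4 to d6, with 41.4% of genes called, Snai1 (1.26), Twist1 (0.92, adjusted p = 0.00920) and Zeb2 (0.53) rose, Zeb1 fell by 1.13 and Snai2 (-0.03) was not called. The Zeb2 rise in KO after d4 lost its call with a pseudocount of 5 (0.14, adjusted p = 0.0337) and with quantile normalization (0.41, adjusted p = 0.0104). The Snai1 change in KO before d4 was called under both rescalings (-1.0, adjusted p = 0.00416, with the median ratio and -1.28, adjusted p = 0.000996, with quantile normalization) and without any 1 of Ctrl d4 replicate 2 or 3, KO d4 replicate 1 or 2, or KO d6 replicate 1, with adjusted p of 0.00500 to 0.00978. The Twist1 rise in KO after d4 lost its call in 19 of 26 alternatives. These were both rescalings, a pseudocount of 0.1 (adjusted p = 0.0379), eBayes without trend (0.0111), the replicate number as a term (0.0125) and 14 of the 18 fits that left out a library (adjusted p up to 0.0351), all but those without Ctrl d0 replicate 1 or 3, Ctrl d4 replicate 2 or KO d0 replicate 1. In Ctrl, Zeb1 before d4 was called without KO d6 replicate 1 or 3, and Snai1 after d4 without KO d4 replicate 3 (adjusted p = 0.00708).

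**Figure D3:**
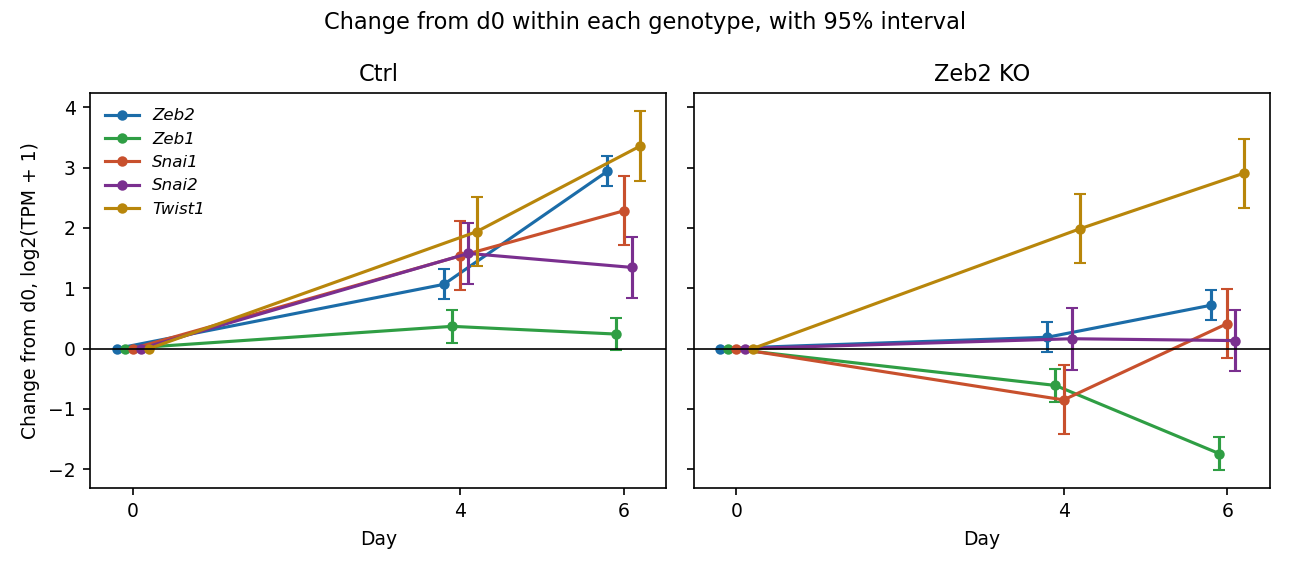
Change from d0 in log2(TPM + 1) at d4 and d6 within Ctrl (left) and Zeb2 KO (right), with 95% intervals from the limma fit, points shifted sideways for sight. In Ctrl, 4 lines rise to between 1.35 and 3.36 at d6 and Zeb1 stays near 0. In Zeb2 KO, Twist1 reaches 2.91 and Zeb1 ends at -1.74.

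Whether the change over ND differed between the genotypes was tested as an interaction (KO change minus Ctrl change). From d0 to d6, where 43.7% of all genes were called in either direction, it was -2.22 ± 0.17 (SE) for Zeb2, -1.98 ± 0.18 for Zeb1 (adjusted p = 1.98e-07), -1.87 ± 0.38 for Snai1 (adjusted p = 0.000593) and -1.21 ± 0.34 for Snai2. Snai2 was called, though the TPM minimum it passed only in Ctrl EBs favours this direction. For Twist1 it was -0.45 ± 0.38 (adjusted p = 0.334), with a 95% interval from -1.26 to 0.36. By interval, Snai1 and Snai2 differed by -2.39 ± 0.38 (adjusted p = 0.000100) and -1.41 ± 0.34 from d0 to d4 (36.1% of genes called), and stood at 0.52 and 0.20, not called, from d4 to d6 (13.4% called). The intervals were not tested against each other, and the Snai2 call from d0 to d4 was lost with voom (-1.70). Zeb1 differed by similar amounts on both intervals, -0.98 and -1.0, and Zeb2 by -0.88 and -1.34. The first Zeb2 call was lost with quantile normalization (-0.19, adjusted p = 0.399), and with a pseudocount of 0.1 the second value was -0.84. With voom on recovered reads the Zeb2 values were -0.14, -0.43 and, from d0 to d6, -0.57 ± 0.56 (adjusted p = 0.410), none called, so on a scale of relative change the Zeb2 course was not shown to differ between the genotypes. The Snai2 call from d0 to d6 was lost without any 1 of 7 libraries (Ctrl d0 replicate 1 or 2, Ctrl d6 replicate 2, KO d0 replicate 1 or 2, KO d6 replicate 1 or 3), under both rescalings, with voom and with a pseudocount of 0.1.

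Genes of related lists were then counted at d4 and d6, beside all genes (32.7% lower and 12.7% higher on d4, 34.3% and 17.9% on d6). Because of the TPM minimum, some genes are in the table only through Ctrl libraries, 1 of the EMT factors, 5 of the mesenchymal and 4 of the TGF-beta and BMP genes, and 2 epithelial genes only through KO libraries. For those genes the direction was favoured by that filter, so no p is given for the ones named. Of 17 other EMT factors and bHLH partners, 12 were in the table. At d4, 6 of them were called lower and 0 higher (median log2 difference -0.65), and at d6 the counts were 8 and 2 (median -0.95). Id3, an inhibitor of E proteins and so of bHLH dimers, went from 316 ± 20.7 TPM (SD, n = 3) in Ctrl to 66.6 ± 1.81 in KO at d6 (log2 difference -2.23, adjusted p = 2.25e-07). Prrx2, a mesenchymal homeobox gene, was at 26.7 ± 1.17 and 5.92 ± 2.67 (-2.07), and Foxc2, a forkhead gene of paraxial mesoderm, at 6.27 ± 0.916 and 0.847 ± 0.555 (-2.02), the one kept only through Ctrl libraries. Snai3, the third Snail gene, was called higher at d6, with 9.31 ± 1.78 in Ctrl and 24.0 ± 3.33 in KO (1.28, adjusted p = 4.10e-05), and so was Id4. The E proteins Tcf3 and Tcf12, partners of Twist1, were chosen after their values were seen. Tcf3 was at 172 ± 7.09 TPM in Ctrl and 95.8 ± 4.25 in KO at d6 (-0.84), and Tcf12 at 23.9 ± 0.715 and 9.24 ± 0.733 (-1.28), and both were called lower on both days. At d0 Tcf3 was already called lower in KO (-0.45, adjusted p = 0.000308), and Tcf12 was not called.

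Of 23 mesenchymal genes 15 were measured. At d4, 9 were called lower and 1 higher (median -0.46), and at d6, 10 lower and 3 higher (median -0.73). Cdh2, or N-cadherin, a cell adhesion protein of mesenchymal and neural cells, had 85.2 ± 2.22 TPM (SD, n = 3) in Ctrl and 1.96 ± 0.303 in KO at d6, with a log2 difference of -4.87, and it was kept in the table only through Ctrl libraries at d4 and d6. At d4 it had 24.2 ± 1.48 against 2.75 ± 0.216, and in ESCs at d0, where both levels were low, it was called lower in KO too (mean of 2.72 TPM in Ctrl, log2 difference -0.63, adjusted p = 0.000181). Vim, the intermediate filament vimentin, was called higher in KO at d0 (67.6 ± 5.28 in Ctrl and 112 ± 10.8 in KO, 0.71, adjusted p = 1.43e-05). It was at 63.7 ± 3.00 and 59.5 ± 2.84 at d4, not called, and at 209.6 ± 13.7 and 28.2 ± 3.35 at d6 (-2.85, adjusted p = 3.18e-13). The 3 genes called higher at d6 were Thy1 (5.19 ± 1.81 in Ctrl, 32.8 ± 5.82 in KO), a surface glycoprotein, and the smooth muscle genes Tagln (162 ± 47.6 and 615 ± 223) and Acta2 (54.1 ± 26.4 and 131 ± 61.2). With quantile normalization the d4 count was 4 lower and 2 higher, or 26.7% and 13.3% of the list beside 20.8% and 19.4% of all genes under that scaling, which is near the background.

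Epithelial genes went the other way. Of 31, 29 were measured, and 4 were called lower and 15 higher at d4 (median 0.37), with counts of 3 and 20 at d6 (median 0.69). Rab25, a small GTPase of epithelial vesicle recycling, had 4.17 ± 0.722 TPM (SD, n = 3) in Ctrl and 28.3 ± 3.36 in KO at d6 (2.51), and Marveld3, a tight junction protein, 3.18 ± 0.657 and 18.2 ± 3.45 (2.20), and these are the genes kept only through KO libraries. Cdh1, or E-cadherin, is a classic repression target of Zeb and Snail proteins and was chosen here after its values were seen. At d0 Cdh1 was called higher in KO (398 ± 6.21 in Ctrl and 689 ± 35.1 in KO, 0.79, adjusted p = 1.18e-06). It was at 306 ± 6.19 and 485 ± 34.1 at d4 (0.66) and at 201 ± 19.0 and 561 ± 56.7 at d6 (1.48, adjusted p = 1.19e-10). Against the list, Dsp, the desmosomal desmoplakin, was lower in KO at d6 (80.4 ± 8.88 and 27.7 ± 1.98) and more so at d4 (165 ± 22.9 and 16.8 ± 1.67, log2 difference -3.22), and Krt19 and Llgl2 were the other genes called lower at d6. In ESCs at d0 Dsp was called higher in KO (58.8 ± 5.70 and 78.1 ± 2.73, 0.41, adjusted p = 0.00591). Undifferentiated ESCs are epithelial, and in these libraries the summed pluripotency genes were higher in KO at d6, as given with the marker lists above. The part of that difference in the epithelial and mesenchymal counts was not tested. With the median-ratio rescaling the epithelial split at d4 was 2 lower and 18 higher.

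The subunits of corepressor complexes were near the background, with 7 of 20 called lower and 2 higher at d4 and counts of 8 and 3 at d6 (median -0.11, all genes -0.14), and their split turned under the median-ratio rescaling to 3 lower and 5 higher (d4) and 6 lower and 8 higher (d6). With quantile normalization it did not turn, the counts being 6 and 3 (d4) and 9 and 3 (d6). Chd3, a NuRD helicase, was at 30.0 ± 2.51 TPM (SD, n = 3) in Ctrl and 12.1 ± 1.34 in KO at d6 (-1.24, adjusted p = 3.29e-07), and Mbd2, a methyl-CpG-binding subunit of NuRD, at 43.4 ± 3.75 and 22.3 ± 3.98 (-0.94, adjusted p = 6.15e-06). Mta3, another NuRD subunit, was called higher at d6, with 53.5 ± 2.29 in Ctrl and 98.3 ± 1.84 in KO (0.87, adjusted p = 6.11e-08), and lower at d0 (-1.36, adjusted p = 3.75e-09). The C-terminal binding proteins, picked after their values were seen, moved apart at d6, Ctbp1 at 93.2 ± 2.01 and 50.3 ± 3.27 (-0.88, adjusted p = 1.10e-08) and Ctbp2 at 32.7 ± 0.734 and 57.9 ± 5.87 (0.80, adjusted p = 3.56e-08), and the d6 directions of these 5 genes were the same under both rescalings. Of 24 ligands, receptors and SMADs of TGF-beta and BMP signalling 19 were measured, and 14 were called lower and 1 higher at d4 (median -0.67), with counts of 15 and 1 at d6 (median -0.84). Bmp2, a BMP ligand, was at 8.50 ± 0.521 and 0.924 ± 0.450 at d6 (-2.33), and the ligand Tgfb3 at 9.26 ± 0.497 and 1.58 ± 0.559 (-2.01), both kept only through Ctrl libraries at d6, and the type I receptor Tgfbr1 at 71.5 ± 2.79 and 19.8 ± 1.84 (-1.81). Smad7, the inhibitory SMAD, was the 1 gene called higher, at 11.1 ± 1.30 and 26.4 ± 2.57 (1.18, adjusted p = 1.67e-08).

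**Figure D4:**
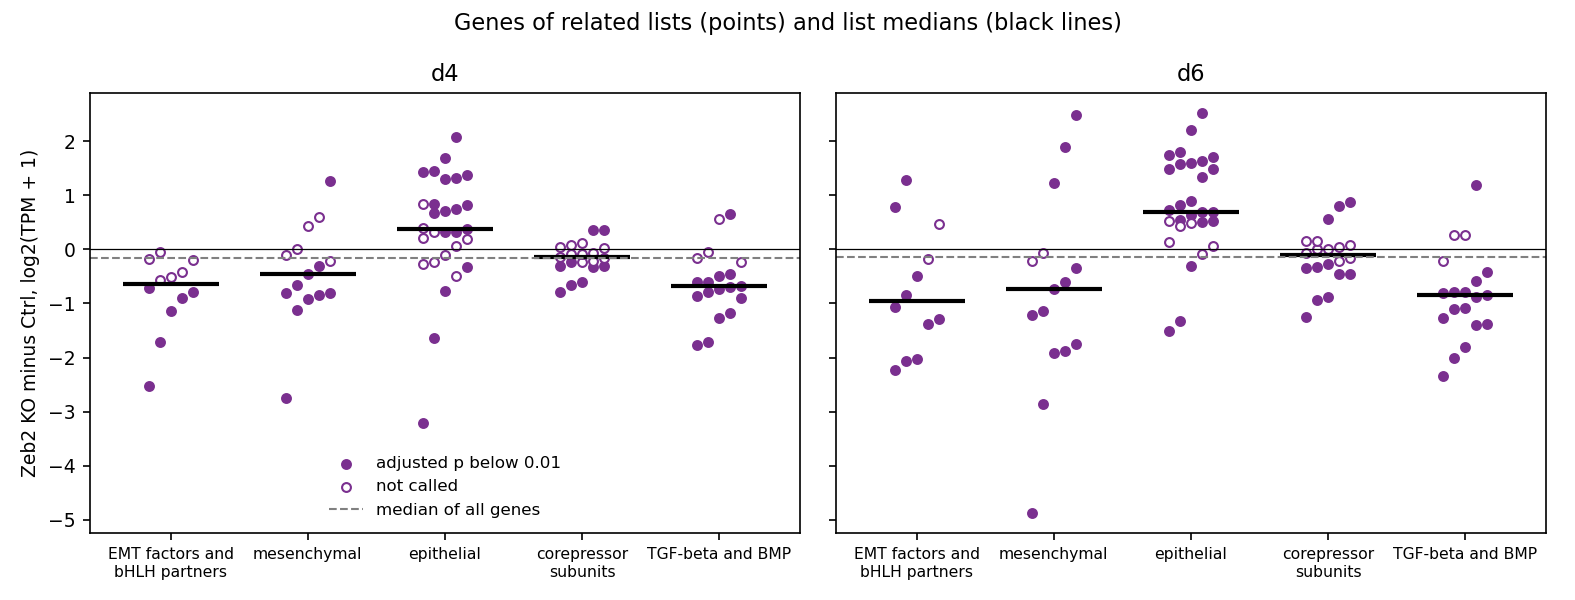
KO minus Ctrl difference in log2(TPM + 1) of the measured genes of 5 lists at d4 (left) and d6 (right), 1 point per gene, filled where the adjusted p was under 0.01. Black bars are list medians and the dashed line is the median of all genes. At d6 the median is -0.95 for EMT factors, -0.73 for mesenchymal, 0.69 for epithelial, -0.11 for corepressor and -0.84 for TGF-beta and BMP genes.

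Markers of tissues where Snai1, Snai2, Twist1 and Zeb2 are known to be used were compared between the genotypes as well. The summed TPM of the 7 mesoderm markers measured was 205 to 249 in Ctrl and 11.5 to 17.4 in KO libraries at d4. Most of it came from Meox1, a homeobox gene of the somites, at 208 ± 22.2 TPM (SD, n = 3) in Ctrl and 0.917 ± 0.326 in KO. The defining early mesoderm genes T, Mesp1, Tbx6, Msgn1 and Mixl1 were not analysed here. For the 10 neural crest markers the sums at d6 were 152 to 178 in Ctrl and 103 to 112 in KO, with 8 called lower and 2 higher. Of all genes, 34.3% were called lower and 17.9% higher at d6. Sox9 and Foxd3, like Meox1 and Pax6 above, were picked from the marker lists after their values were seen. In all, 4 neural crest markers with Sox9, 3 mesoderm markers with Meox1, 4 endoderm and 6 neural progenitor markers were kept in the table only through Ctrl libraries. For these the filter favours lower KO values, also in the counts of called markers. Only through KO libraries was 1 mesoderm marker kept, for which the filter favours higher KO values. Sox9, a neural crest and chondrogenic regulator, was at 17.8 TPM in Ctrl and 0.414 in KO, and Foxd3, which is also an ESC gene, at 2.38 and 37.3. The sum of the 8 endoderm markers at d6 was 168 to 259 in Ctrl and 30.0 to 47.8 in KO, with 8 called lower beside the same shares of all genes. The part of these cell populations in the levels of the 5 factors was not tested.

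The genes with the pattern most like each factor were taken by Pearson's r of log2(TPM + 1) over the 18 libraries, which share their 6 groups, so the values describe the pattern and no test is given. For Zeb2 these were P3h2, a collagen prolyl 3-hydroxylase (r = 0.989), the FGF receptor Fgfr3 (0.989), the apical polarity gene Crb2 (0.988), the protease Prss23 and the basement membrane collagen Col4a5. P3h2 had 0.174, 2.63 and 13.1 TPM on the 3 days in Ctrl and 1.28 at d6 in KO. For Zeb1 they were Txlna (0.972), H2afy, which encodes a macroH2A histone, the maintenance DNA methyltransferase Dnmt1, Tenm4 and Tcf19. H2afy was at 180.0 TPM at d0 and 172.9 at d6 in Ctrl and at 143 and 59.7 in KO. For Snai1 they were Gm12497, a processed pseudogene (0.948), Fam3a, Atat1, Tmem132c and Plin2. For Snai2 they were the ligand Bmp7 (0.965), Mical3, Mex3a, Ube3b and the ephrin ligand Efnb1, and Efnb1 had 7.87, 72.8 and 75.6 TPM on the 3 days in Ctrl and 6.75, 8.26 and 7.92 in KO. For Twist1 they were P3h4 (0.983), Ahcyl1, Klhl5, Zfp853 and Reep2, whose mean TPM was higher at d6 than at d0 in both genotypes. The genes chosen changed with the measure. With Spearman's rho 0 of the 5 genes were shared for Zeb2, 1 for Zeb1, 3 for Snai1, 2 for Snai2 and 1 for Twist1. As many as 938 genes had an r above 0.9 with Twist1 and 483 with Zeb2, against 1 with Snai1. Among the 5 factors themselves r was highest for Zeb2 with Snai1 (0.82) and lowest for Zeb1 with Twist1 (-0.18).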

How the data were processed

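RNA-seq was done on 18 libraries, 3 each of Ctrl and Zeb2 KO cells at d0, d4 and d6. Per the methods, the authors read 36 bp single ends of libraries made with a TruSeq RNA kit, aligned them to GRCm38 with TopHat2 (2.0.13), counted reads per Ensembl gene with featureCounts (1.4.6) and deposited TPM values. They removed short noncoding RNAs, genes with at least 5 TPM in fewer than 3 samples and the 20% least variable genes, so genes that stayed low throughout are absent. Columns of gene variability, a score computed by the authors, were not used. The 11046 rows hold 10965 Ensembl genes, and 81 repeated rows were left out.

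The 5 genes, the lists and the tests were chosen with earlier results of these data known. Differences were fitted to log2(TPM + 1) of all 10965 genes with limma 3.58.1 (group means, eBayes with trend, R 4.3.3), with Benjamini-Hochberg adjustment and calls at an adjusted p under 0.01. Fold changes are on the log2(value + 1) scale. Within each gene the TPM values, divided by a factor per library, were proportional to whole numbers of reads plus 1. This held to within 1e-06 for all 10965 genes and gave 9622622 to 15617675 reads per library. No gene length entered this step. The fit and the read recovery were tested on simulated data. Genes named are the 5 factors, the genes of each list with the largest differences at d6 in either direction, and the 5 genes of highest Pearson r with each factor among those with a mean of at least 1 TPM. Outside this rule, Tcf3, Tcf12, Cdh1, Ctbp1, Ctbp2, Meox1, Pax6, Sox9 and Foxd3 were picked after their values were seen. Sox1 and Nes are named beside Pax6. Alternatives were other pseudocounts (0.1 and 5), a mean of at least 5 TPM, rescaling by median ratios, quantile normalization, fits to 1 day, eBayes without trend, the replicate number as a block, voom on recovered reads and leaving out each library. Positions came from GENCODE M21 and upstream windows from RefSeq. Intervals of read ratios are exact (Clopper-Pearson, 95%) and cover counting error only.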

Additional observations from a re-analysis of the deposited data

Results flagged for a closer look

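These results are listed because the change of a gene over ND differed between the genotypes by the interaction test (KO change minus Ctrl change in log2(TPM + 1), limma, adjusted p under 0.01). Zeb2 differed by -0.88 from d0 to d4, -1.34 from d4 to d6 and -2.22 from d0 to d6, and none of these was called with voom on recovered reads (-0.14, -0.43 and -0.57). Zeb1 differed by -0.98, -1.0 and -1.98 on the same intervals, and with voom by -1.02, -1.29 and -2.31, all called. Snai1 differed by -2.39 up to d4 and by -1.87 up to d6, and Snai2 by -1.41 and -1.21. In Snai1 the difference before d4 joins a rise in Ctrl (1.54) with a value of -0.85 in KO that was not called (adjusted p = 0.0108), but was under both rescalings (-1.0 and -1.28). The Snai2 difference before d4 was not called with voom (-1.70). Zeb2 was in the table only through Ctrl d6, so its values up to d6 are a description. Snai2 was in it only through Ctrl d4 and d6, so the differences given for Snai2 are a description too. Groups of 3 libraries were not searched for outlying samples.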

How the results depend on the processing

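Of 1826 values recomputed under alternatives, 1722 kept their direction and their side of the threshold (for counts, stayed within 1.5 times). Zeb1 and Snai2 at d4 and d6, Zeb2 at d4 and d6 and Snai1 at d4 kept direction and call wherever they were run. For Snai2 on both days and Zeb2 at d6 this is a description only, as every alternative started from the same filtered table. The cause of the changes below was not tested. With a pseudocount of 0.1, Zeb2 at d0 was at -0.92 and called, and the Snai2 course difference from d0 to d6 was at -1.43, not called. With a pseudocount of 5, Twist1 at d6 was at -0.68 and called, and its course difference up to d4 turned to -0.044. With voom, Zeb2 at d0 was at -2.84 and called, Twist1 at d6 at -0.71 and called, and the course differences from d0 to d6 of Zeb2 (-0.57) and Snai2 (-1.53) were not called. In fits to 1 day, Snai1 at d0 (0.84) and Twist1 at d6 (-0.78) were called. With the median-ratio rescaling, Snai1 at d6 (-0.88) and the Snai2 course difference (-1.09) were not called, and Zeb1 in Ctrl from d0 to d6 turned to -0.037. With quantile normalization the last 3 were at -0.81, -0.97 and -0.44, Twist1 at d4 turned to 0.035, Zeb1 in Ctrl up to d4 to -0.15, and in KO Snai1 up to d6 turned to -0.16 and Snai2 to -0.48 up to d4 and -0.69 up to d6. Mesenchymal genes called at d4 were 6 with quantile normalization and 6 among genes with a mean of at least 5 TPM, a filter that leaves Zeb2 and Snai2 without values. Leaving out each library in turn gave a range of 0.68 to 0.93 for Snai1 at d0, -1.21 to -0.91 for Snai1 at d6, -0.41 to 0.021 for Snai2 at d0, -0.75 to -0.031 for Twist1 at d0, -0.83 to -0.73 for Twist1 at d6 and -1.42 to -0.97 for the Snai2 course difference. For values not called, it gave -0.048 to 0.39 (Snai2 in KO, d0 to d4), -0.20 to 0.071 (d4 to d6), -0.078 to 0.36 (d0 to d6) and -0.25 to 0.47 (Twist1 course difference up to d4). With the replicate number as a block (replicate block), 69 of 70 values kept direction and call, and Twist1 in KO from d4 to d6 (0.92) was no longer called (adjusted p = 0.0125). Calls over all genes were then 2780, 4853 and 5629 at d0, d4 and d6, against 2960, 4988 and 5731. The numbers were not taken as pairs in the main fit. Yet r between same-numbered libraries of different groups was -0.09 to 0.34 and over 0.1 in 29 of 45 pairs. Its median was 0.15, against -0.05 for libraries of other numbers, and 15 of 18 libraries correlated best with their own number. Libraries of 1 number were thus somewhat alike, which the block fit allows for and the main fit does not. Low read numbers limit Snai1, Snai2, Twist1 and Zeb2 in KO.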

Other observations

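Genes near the 5 factors were compared between the genotypes. Within 5 Mb of Zeb2, 10 genes were measured, and their median KO minus Ctrl difference in log2(TPM + 1) was -0.02 (d0), 0.03 (d4) and 0.10 (d6), with 4 called lower and 1 higher at d6 (34.3% of all genes were called lower and 17.9% higher). Around Zeb1, 21 genes had a median of -0.31 at d6, with 10 called lower and 4 higher, and around Twist1, 22 genes had a median of -0.31, with 11 lower and 3 higher. The 81 genes around Snai1 and the 72 around Snai2 had medians of -0.10 and -0.14 at d6, beside -0.14 for all genes.

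The 3 libraries of a group spread unequally. Zeb2 in Ctrl at d6 had an SD of 1.80% of its mean and Twist1 in Zeb2 KO at d6 4.99%, while Twist1 in Ctrl at d0, on 5 to 20 reads, had 61.5% and Snai1 in Zeb2 KO at d4, on 6 to 22 reads, 47.2%. The summed TPM of the 5 factors was alike in both genotypes at d0, 21.3 ± 2.37 (SD, n = 3) in Ctrl and 21.4 ± 1.82 in KO, and at d6 it was 83.8 ± 0.468 and 33.7 ± 3.51.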
